A study of Mus musculus with 12 samples.

Results

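Prostaglandins are lipid mediators made from arachidonic acid, and in brain vessels they carry the signal of a systemic infection across the blood-brain barrier. The 10 genes described here were chosen by name, with earlier results of these data known, and they cover the steps from the release of arachidonic acid to a receptor. Pla2g4a encodes the cytosolic phospholipase A2 that frees arachidonic acid from membranes. Ptgs1 and Ptgs2 encode the constitutive and the inducible cyclooxygenase, COX-1 and COX-2. Ptges, Ptges2 and Ptges3 encode the prostaglandin E synthases, Ptgis the prostacyclin synthase, and Ptgds the lipocalin-type prostaglandin D synthase. Hpgd encodes 15-hydroxyprostaglandin dehydrogenase, which starts prostaglandin breakdown, and Ptger4 the prostaglandin E2 receptor EP4. All 10 members were found among 54119 genes, and all 10 were among the 19150 genes with enough fragments to be tested.

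The libraries held RNA of cerebral vessels from C57BL/6 mice after an intraperitoneal injection. Control mice received PBS, and the other mice received LPS of E. coli O55:B5 at 10 mg/kg and were killed 15 min, 30 min or 4 h later. The time between the PBS injection and tissue collection is not given in the sources used here. Each of the 4 groups (PBS, LPS 15 min, LPS 30 min, LPS 4 h) had 3 libraries, and each library pooled the vessels of a male and a female mouse. Vessels were isolated from perfused forebrains freed of meninges, by homogenisation, a dextran step and capture on a mesh, so the samples hold whole vessels and not a single cell type. Between 18.3 M and 25.9 M fragments were assigned per library. Markers of endothelial cells, pericytes, smooth muscle, fibroblasts, astrocytes, microglia, perivascular macrophages and choroid plexus were all above 0 in each group. The p-values measure the spread between the libraries of a group. This spread was small, with a common biological coefficient of variation of 0.052 in the fit. How much of the variation between animals it holds was not tested. In bulk vessels fewer cells of a type cannot be told apart from less RNA per cell.

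Cyclooxygenases convert arachidonic acid to prostaglandin H2, which the terminal synthases turn into prostaglandin E2, D2 or prostacyclin. Prostaglandin E2 made in brain vessels is a classical trigger of fever, prostacyclin dilates vessels and restrains platelets, and prostaglandin D2 is made in quantity by the leptomeninges and choroid plexus. In the prostaglandin E2 branch, COX-2 and the microsomal synthase encoded by Ptges are known as inducible enzymes.

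The sequences before the start sites are shown for the 3 members with the highest rises at 4 h and for Ptgs1, the second cyclooxygenase gene, which moved in the opposite direction. They are the 250 bases before each RefSeq start site (GRCm38.p6), read 5′ to 3′ on the strand of the gene, and capitals mark letters that match a searched motif.
Ptgs2, chr1:150099781-150100030, plus strand: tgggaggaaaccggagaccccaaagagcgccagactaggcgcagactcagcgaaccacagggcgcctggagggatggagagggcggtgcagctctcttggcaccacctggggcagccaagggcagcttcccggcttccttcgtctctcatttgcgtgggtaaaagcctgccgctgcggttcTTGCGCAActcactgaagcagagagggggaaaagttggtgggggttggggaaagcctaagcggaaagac
Ptgs2, first bases of the transcript, chr1:150100031-150100060, plus strand: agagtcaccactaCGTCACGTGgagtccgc
Ptges, chr2:30903298-30903547, minus strand: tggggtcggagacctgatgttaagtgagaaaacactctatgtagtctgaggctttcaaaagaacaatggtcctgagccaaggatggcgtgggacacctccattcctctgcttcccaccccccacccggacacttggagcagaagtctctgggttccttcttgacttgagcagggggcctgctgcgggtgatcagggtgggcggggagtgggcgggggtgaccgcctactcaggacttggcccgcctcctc
Pla2g4a, chr1:149961291-149961540, minus strand: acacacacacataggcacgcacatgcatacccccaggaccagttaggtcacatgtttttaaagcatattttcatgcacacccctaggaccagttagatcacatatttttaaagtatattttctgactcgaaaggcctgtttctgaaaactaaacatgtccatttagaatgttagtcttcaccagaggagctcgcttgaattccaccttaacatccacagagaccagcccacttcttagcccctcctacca
Ptgs1, chr2:36230176-36230425, plus strand: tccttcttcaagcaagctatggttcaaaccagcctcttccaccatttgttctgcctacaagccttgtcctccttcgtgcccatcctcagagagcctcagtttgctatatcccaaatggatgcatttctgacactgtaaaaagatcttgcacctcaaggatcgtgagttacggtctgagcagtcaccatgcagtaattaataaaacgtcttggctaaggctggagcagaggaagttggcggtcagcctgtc
The promoter table held 9 of the 10 members, all except Ptgis. The 7 motifs searched on both strands of the 300 bases from 250 before to 50 after the start were the NF-kB consensus, the AP-1 site TGANTCA, the core TGACG of the cyclic AMP response element (CRE), the C/EBP site TTGCNNAA, the E-box CACGTG, the TATA box TATAAA and the serum response element core. Ptgs2 held 3 of the 7, namely a C/EBP site starting 69 bases before the start, a CRE core on the minus strand whose leftmost base is base 14 of the transcript, and an E-box from base 17, which overlaps the CRE core. These letters occur in 10.8%, 20.8% and 7.15% of the 32851 promoters of the table. Ptges, Pla2g4a, Ptgs1 and Ptger4 held none of the 7 in this window. Ptgds held an NF-kB consensus match 22 bases and an AP-1 match 35 bases before its start, and such matches occur in 8.46% and 7.81% of all promoters. Ptges3 held an NF-kB consensus match and a CRE core, Ptges2 an E-box, and Hpgd a TATA box match 5 bases into the transcript, with TATA box letters in 13.6% of all promoters. These matches are descriptions of letters and not of binding.

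Levels between genes were compared as TPM, which corrects for transcript length. In PBS vessels Ptgds was far above the other members, at a mean of 13119.8 TPM, which ranked 7 among the 19150 tested genes. Ptges3 followed at 78.6 TPM, then Ptgis at 64.5 and Pla2g4a at 25.1. Ptges2 (12.5 to 13.8 TPM) and Ptgs2 (11.8 to 12.7 TPM) overlapped, and so did Hpgd (8.37 to 10.2 TPM), Ptges (8.54 to 9.66 TPM) and Ptgs1 (7.39 to 10.3 TPM). Ptger4 was the lowest member, at 1.34 TPM. At 4 h Ptgds still led, at 3759 TPM, and Ptgs2 stood second, at 995 TPM. Ptges3 (90.6 to 94.1 TPM) and Ptges (85.7 to 89.0 TPM) were then next to each other, followed by Pla2g4a at 67.8 TPM, and the 3 libraries of Ptges3 all stood above those of Ptges. The rank of Ptgs2 went from 8571 (PBS) through 5043 (15 min) and 396 (30 min) to 83 (4 h). The lowest member at 4 h was Hpgd, at 0.981 TPM.

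**Figure D1:**
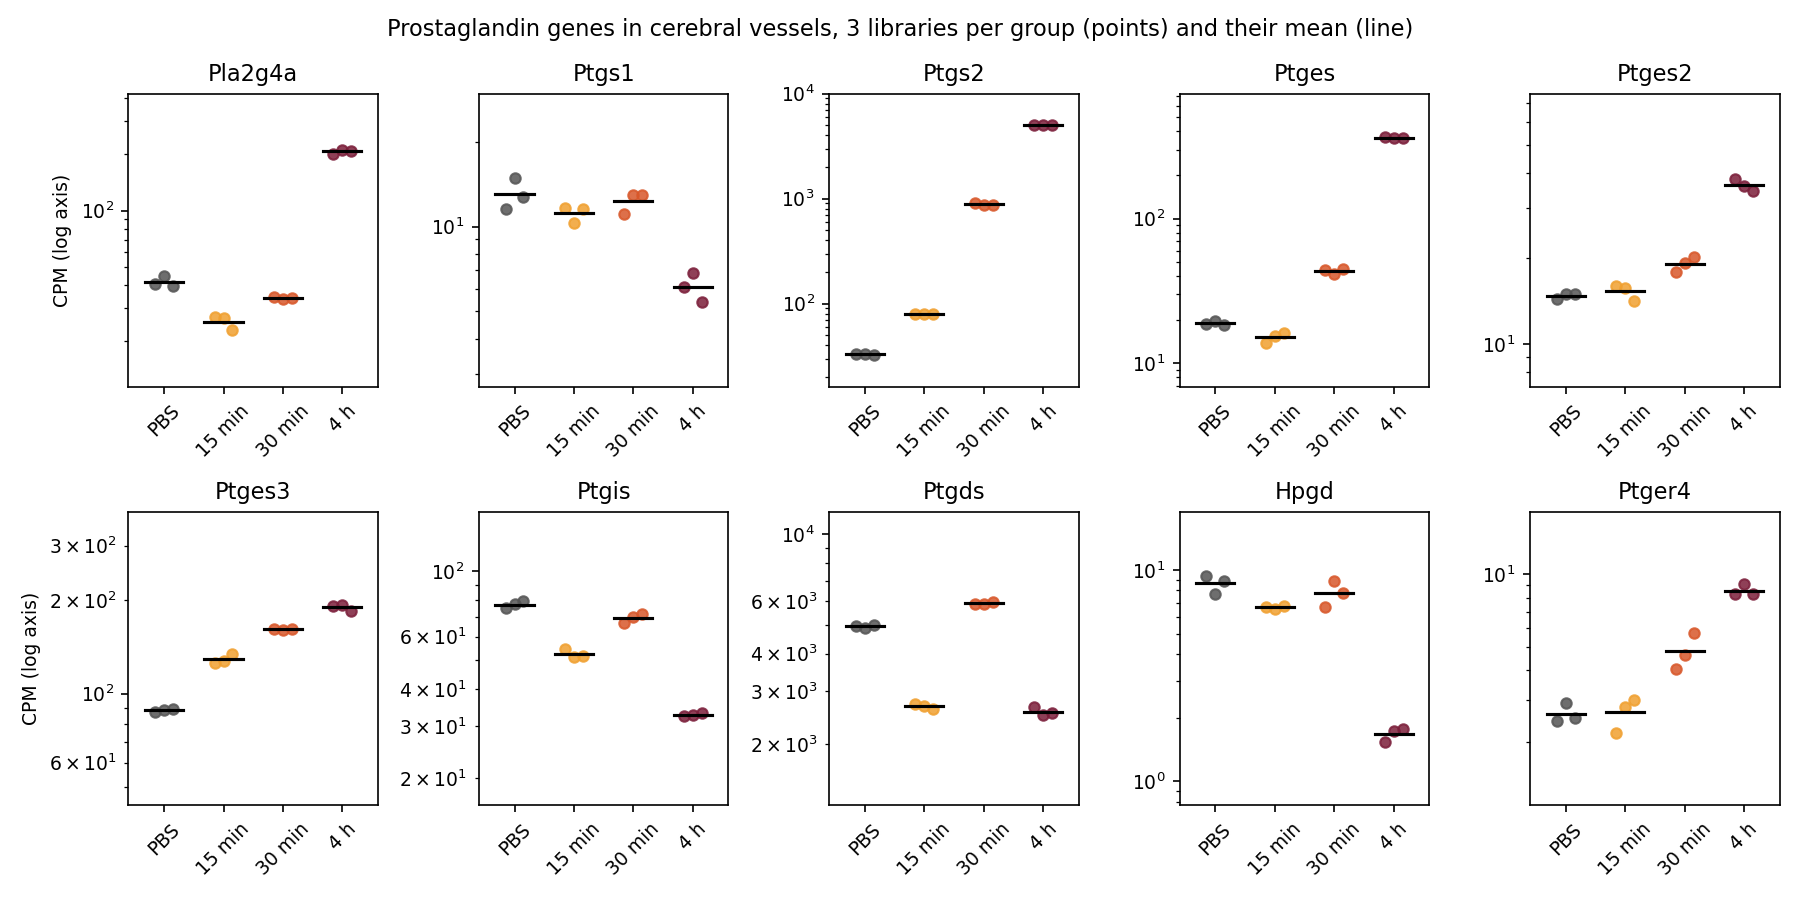
Level of each of the 10 genes in each library, in scaled counts per M fragments (CPM) on a log axis that differs between panels, with points for the 3 libraries of a group and a line at their mean. Ptgs2 climbed at every time from 32.9 to 5008 CPM, whereas Ptgds was low at 15 min and at 4 h and high in PBS and at 30 min.

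The members were tested across all genes for a change of more than 1.5-fold, with edgeR and an adjusted p of 0.05 as the limit. At 15 min 2 of the 10 members passed against PBS, Ptgs2 higher and Ptgds lower, and 4.18% of all tested genes passed (3.31% higher and 0.872% lower). At 30 min 3 members passed, Ptgs2, Ptges and Ptges3, all higher, beside 4.58% of all genes (3.78% higher). At 4 h all 10 passed, 6 higher and 4 lower, beside 32.8% of all genes (19.0% higher and 13.8% lower). With no correction for composition, the median of all genes at 4 h moved to -0.71 on the log2 scale, 9.96% of genes passed as higher and 44.7% as lower, and the members split into 4 higher and 4 lower, with Ptges2 and Ptges3 no longer past the threshold. At the 3 successive times the median log2 change of the members was -0.27, 0.32 and 1.197, and that of all tested genes was -0.0021, -0.010 and -0.0098. Tested for any change at all, 7 members differed from PBS at 15 min and 8 at 30 min, beside 38.6% and 36.9% of all genes, so a small difference from PBS was common among all genes. Groups did not overlap PBS for 49.3% of all tested genes at 15 min, 46.7% at 30 min and 70.9% at 4 h. Among the members 7, 8 and 10 were without overlap.

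**Figure D2:**
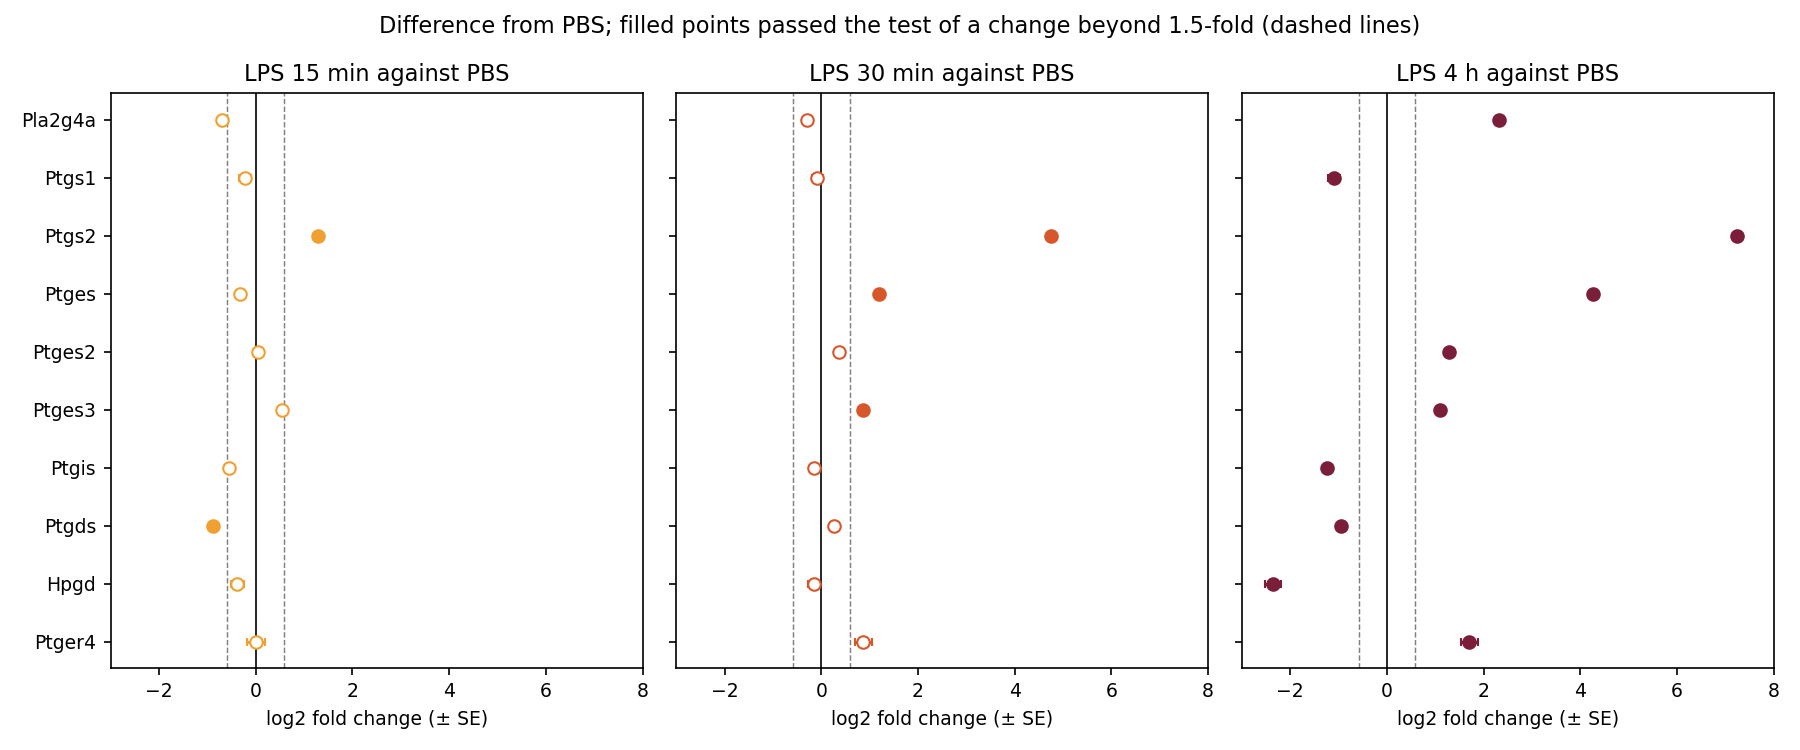
Log2 fold change of each gene against PBS at the 3 times after LPS, with bars of 1 SE from the fit over all 12 libraries (3 per group) and dashed lines at a 1.5-fold change. Filled points passed the test of a change beyond 1.5-fold, which were 2 genes at 15 min, 3 at 30 min and 10 at 4 h.

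Pla2g4a, at the head of the pathway, rose only late. Its level was 40.3, 44.8 and 39.5 CPM in the PBS libraries, 27.0, 26.7 and 22.8 CPM at 15 min, 34.5, 33.6 and 34.0 CPM at 30 min, and 202, 212 and 208 CPM at 4 h. The 3 libraries at 15 min and at 30 min all lay below the PBS libraries, and those at 4 h all lay above. The 15 min difference was -0.71 ± 0.059 (log2 ± SE) and did not pass the test beyond 1.5-fold (edgeR adjusted p = 0.132), nor did the 30 min difference of -0.29 ± 0.058. At 4 h the gene was 4.98-fold above PBS, a log2 change of 2.32 ± 0.052 (edgeR adjusted p = 1.61e-19), and from 30 min to 4 h it rose by 2.61 on the log2 scale. Nearly all its TPM came from 1 transcript, Pla2g4a-201, whose mean share by group ranged from 98.1% to 99.7%. Markers of neutrophils, cells that also use this phospholipase, rose at the same time. Their summed level was 2.32 to 2.71 CPM in PBS and 191 to 196 CPM at 4 h, and 5 of the 5 tested of the 6 markers passed as higher, with the sixth, Ly6g, at 0 in all PBS libraries. Their part in the result was not tested.

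Ptgs2 was the member that changed most and the only one to pass as higher at every step. It stood at 32.9, 33.5 and 32.4 CPM in PBS, at 80.1, 80.5 and 80.1 CPM at 15 min, at 908, 873 and 863 CPM at 30 min, and at 5015, 5001 and 5008 CPM at 4 h. No 2 groups overlapped, and within a group the libraries lay close together. The rise was 2.43-fold within 15 min (log2 1.28 ± 0.026, edgeR adjusted p = 1.52e-16), 26.7-fold at 30 min (4.74 ± 0.026, edgeR adjusted p = 2.56e-31) and 152-fold at 4 h (7.25 ± 0.028, edgeR adjusted p = 8.02e-35). Under the alternative settings tried, the 4 h log2 change ranged from 6.54 to 7.25. The step from 15 to 30 min was itself 10.98-fold, and that from 30 min to 4 h was 5.68-fold. At 4 h a single transcript, Ptgs2-201, held 99.6% of the gene's TPM. The gene took 0.358% to 0.359% of all fragments of a library against 0.0038% to 0.0039% in PBS. Its 3′ untranslated region of 2445 bases holds 14 copies of the AU-rich pentamer ATTTA, a letter motif known from short-lived mRNAs, and 2.93% of 15541 tested genes with such a region hold as many. The other members hold between 0 and 5 copies. Per kb Ptgs2 has 5.73 copies, reached by 4.90% of these genes, and Pla2g4a, with 4 copies in a region of 443 bases, has 9.03, reached by 1.33%.

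Ptgs1, the housekeeping cyclooxygenase, fell at 4 h. It measured 11.5, 14.8 and 12.7 CPM in PBS, 11.7, 10.3 and 11.6 CPM at 15 min, 11.1, 12.95 and 12.9 CPM at 30 min, and 6.09, 6.86 and 5.40 CPM at 4 h. The first 3 groups overlapped, and the 4 h libraries lay below all of them. The log2 difference from PBS was -0.22 ± 0.11 at 15 min and -0.08 ± 0.12 at 30 min, neither past the test, and at 4 h the gene was 2.13-fold lower (-1.09 ± 0.13, edgeR adjusted p = 0.000363). This call rests on 79 to 103 fragments per library at 4 h. Microglia, which express Ptgs1, also had lower marker levels at 4 h, where their 6 markers summed to 91.5 to 97.5 CPM against 146 to 150 CPM in PBS and 3 of the 6 passed as lower. The 5 platelet markers, from the other well-known Ptgs1-expressing source in blood, summed to 34.8 to 39.5 CPM in PBS and 49.2 to 56.9 CPM at 4 h. Of these, Pf4 alone passed as higher. Itga2b, which did not pass, had means of 12.1 CPM in PBS and 19.9 CPM at 4 h. Ppbp, Gp9 and Gp1ba had log2 differences of -0.21, -0.47 and -0.70 that did not pass. The part of these cells in the result was not tested.

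The balance of the cyclooxygenases therefore shifted further towards COX-2 mRNA. In PBS the ratio of Ptgs2 to Ptgs1 in TPM was 1.24 to 1.70 in the 3 libraries, with a mean of 1.40 ± 0.26 (SD, n = 3). After LPS the mean ratio reached 3.43 ± 0.62 by 15 min, 40.7 ± 5.4 by 30 min and 468 ± 59 by 4 h, and the ranges of the groups did not overlap. From protein-coding transcripts alone the means were 1.68, 4.80, 46.7 and 537 in the 4 groups, and again no ranges overlapped.

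**Figure D3:**
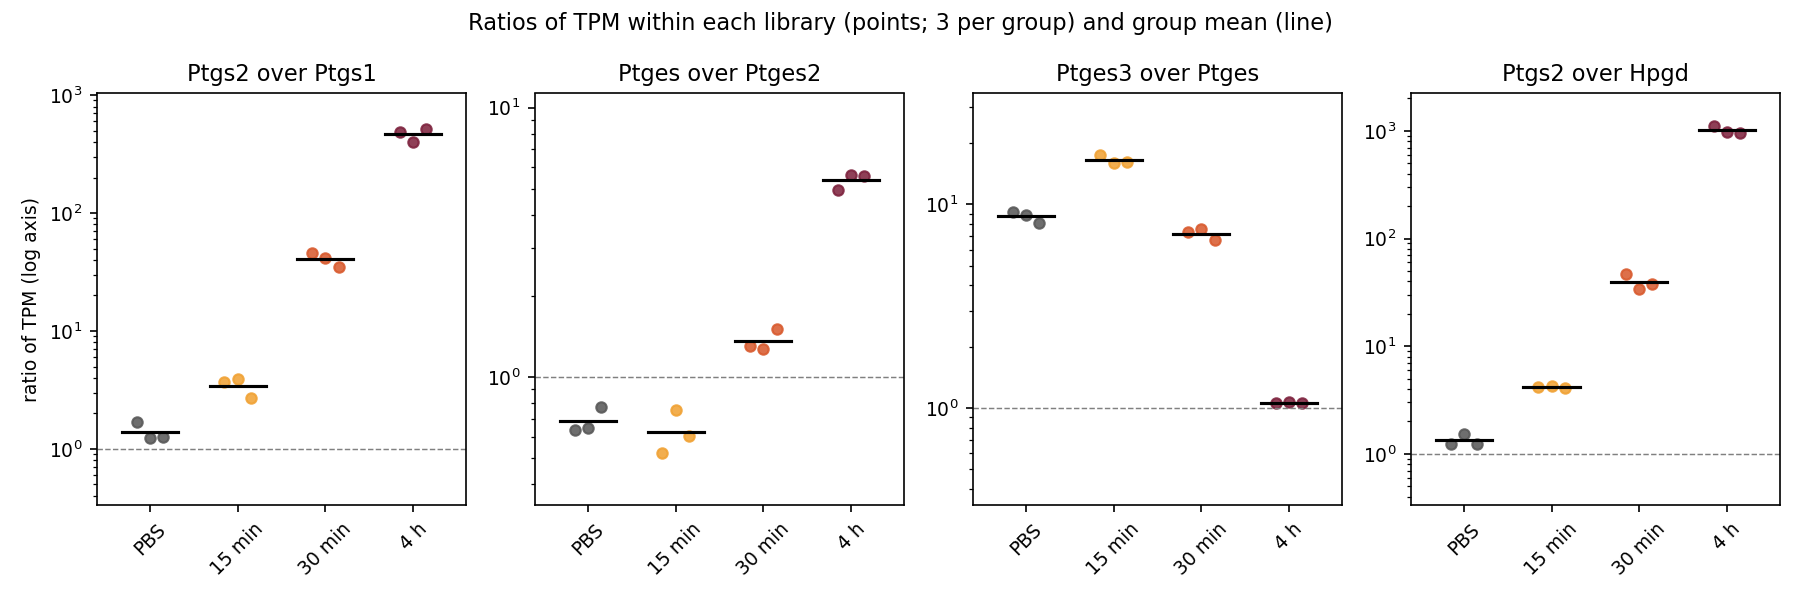
Ratio of 2 members' TPM within each library, on log axes that differ between panels, with points for the 3 libraries of a group, a line at their mean and a dashed line at equality. Ptgs2 over Ptgs1 rose to 468 and Ptgs2 over Hpgd to 1018 at 4 h, the gene total of Ptges was above that of Ptges2 from 30 min on, and Ptges3 over Ptges came down from 16.5 at 15 min to 1.06 at 4 h.

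Of the 3 prostaglandin E synthases, Ptges, the inducible microsomal enzyme that is known to work with COX-2, moved most. Its level was 18.7, 19.6 and 18.4 CPM in PBS, 13.8, 15.5 and 16.3 CPM at 15 min, 44.1, 41.8 and 44.7 CPM at 30 min, and 366, 361 and 363 CPM at 4 h. All 15 min libraries lay below PBS, by a log2 difference of -0.32 ± 0.059 that did not pass the test beyond 1.5-fold, and all later libraries lay above. The gene was 2.30-fold above PBS at 30 min (log2 1.203 ± 0.052, edgeR adjusted p = 2.71e-10) and 19.2-fold above it at 4 h (4.26 ± 0.046, edgeR adjusted p = 1.07e-26). Ptges thus passed as higher first at 30 min, whereas Ptgs2 had passed at 15 min. Between 15 and 30 min it rose by 1.52 on the log2 scale and between 30 min and 4 h by 3.06.

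Ptges2 and Ptges3, the synthases regarded as constitutive, changed by less. Ptges2 ranged from 14.3 to 14.9 CPM in PBS, from 14.2 to 16.0 CPM at 15 min, from 17.9 to 20.2 CPM at 30 min and from 34.6 to 37.9 CPM at 4 h. The 15 min group overlapped PBS and the later groups lay above it. Its log2 change was 0.38 ± 0.076 at 30 min, which did not pass, and 1.29 ± 0.075 at 4 h (edgeR adjusted p = 1.99e-09), or 2.45-fold. Between 57.9% and 68.0% of the Ptges2 TPM, by group mean, belonged to Ptges2-203, a transcript annotated as a retained intron, and 28.5% to 38.9% to the protein-coding Ptges2-201, so the level of the gene is not that of its coding mRNA. Ptges3, which also encodes the Hsp90 co-chaperone p23, ranged from 87.4 to 89.0 CPM in PBS, from 126 to 134 CPM at 15 min, from 160 to 162 CPM at 30 min and from 185 to 192 CPM at 4 h. No 2 groups overlapped. Its log2 change was 0.55 ± 0.032 at 15 min, below the 1.5-fold limit, 0.87 ± 0.032 at 30 min (edgeR adjusted p = 5.65e-08) and 1.10 ± 0.033 at 4 h (edgeR adjusted p = 1.42e-13). With no correction for composition the 4 h changes were 0.59 for Ptges2 and 0.40 for Ptges3, neither past the test, and Ptges3 was then lower at 4 h than at 30 min (-0.30). The processed pseudogene Ptges3-ps had 0 fragments in every library.

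The TPM of Ptges relative to Ptges2 was 0.683 ± 0.076 in PBS and 0.626 ± 0.12 at 15 min, then 1.36 ± 0.12 at 30 min and 5.39 ± 0.39 at 4 h (mean ± SD, n = 3). These totals include the retained-intron transcript of Ptges2. From protein-coding transcripts alone, an alternative chosen after the data had been seen, Ptges was already above Ptges2 in PBS, at a ratio of 2.24 ± 0.16, followed by 1.64 ± 0.32 (15 min), 3.79 ± 0.36 (30 min) and 17.3 ± 0.73 (4 h). The TPM of Ptges3 exceeded that of Ptges 8.72-fold in PBS and 16.5-fold at 15 min, but only 1.06-fold at 4 h.

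Ptgis, the prostacyclin synthase of endothelium and smooth muscle, fell at 4 h. Its level ranged from 74.8 to 79.1 CPM in PBS, from 51.2 to 54.4 CPM at 15 min, from 66.7 to 71.5 CPM at 30 min and from 32.4 to 33.1 CPM at 4 h. All LPS libraries lay below the PBS libraries. The 15 min difference of -0.55 ± 0.043 and the 30 min difference of -0.15 ± 0.043 did not pass the test beyond 1.5-fold, and at 4 h the gene was 2.35-fold lower (log2 -1.23 ± 0.049, edgeR adjusted p = 6.06e-12). The 5 smooth muscle markers had their lowest summed level at 15 min, at 1764 to 1797 CPM against 2723 to 2751 CPM in PBS. At 4 h they stood at 2560 to 2619 CPM, with log2 differences of single markers from -0.43 to 0.17. The endothelial markers summed to 8394 to 8683 CPM in PBS and 5937 to 5990 CPM at 4 h. Of these, 4 of 6 passed as lower at 4 h and Cdh5 passed as higher. The part of these cells in the result was not tested. A transcript on the opposite strand, 1110018N20Rik, overlaps Ptgis and took 31 to 158 fragments per library against 420 to 2284 for Ptgis. The library kit does not keep the strand, so reads in the shared stretch cannot be told apart.

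Ptgds, which makes prostaglandin D2 and is also secreted as a carrier of small lipids, did not move in 1 direction. It measured 4929, 4879 and 4971 CPM in PBS, 2711, 2679 and 2615 CPM at 15 min, 5856, 5855 and 5929 CPM at 30 min, and 2647, 2500 and 2531 CPM at 4 h. The PBS and 30 min libraries were high and did not overlap each other, and the 15 min and 4 h libraries were low and overlapped. Against PBS the gene was 1.85-fold lower at 15 min (log2 -0.88 ± 0.020, edgeR adjusted p = 6.59e-12), 0.26 ± 0.020 higher on the log2 scale at 30 min, which did not pass, and 1.92-fold lower at 4 h (-0.94 ± 0.020, edgeR adjusted p = 1.04e-14). Both reversals passed in their own comparisons, with a log2 change of 1.14 ± 0.020 from 15 to 30 min (edgeR adjusted p = 2.54e-17) and of -1.2002 ± 0.020 from 30 min to 4 h (edgeR adjusted p = 3.22e-19). The gene took 0.567% to 0.581% of all fragments in PBS and 0.179% to 0.189% at 4 h. Its leading protein-coding transcripts, Ptgds-202 and Ptgds-203, kept similar shares, at 60.3% to 64.7% and 32.1% to 34.4% of its TPM by group mean.

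Ptgds is a marker of leptomeningeal cells and choroid plexus, and their markers also stood below PBS at 15 min. The summed level of 6 such markers, dominated by Ttr, was 11492 to 11901 CPM in PBS, 10025 to 10520 CPM at 15 min, 14680 to 15022 CPM at 30 min and 18514 to 19445 CPM at 4 h. At 15 min all 6 were below PBS, by log2 differences of -0.71 to -0.14 that did not pass the test, and at 4 h the list split, with Ttr and Kl higher and Slc47a1 and Slc22a6 lower. The 5 perivascular fibroblast markers summed to 434 to 458 CPM in PBS, 313 to 331 CPM at 15 min, 380 to 390 CPM at 30 min and 299 to 311 CPM at 4 h. Of these 5, Col1a1 passed as lower at each time and Col1a2 at 4 h only. Dcn stood 0.13 above PBS at 4 h on the log2 scale. The part of a changing tissue makeup in the course of Ptgds was not tested.

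Hpgd, the gene of prostaglandin breakdown, fell at 4 h more than any other member. It measured 9.40, 7.69 and 8.89 CPM in PBS, 6.68, 6.54 and 6.72 CPM at 15 min, 6.67, 8.87 and 7.82 CPM at 30 min, and 1.54, 1.73 and 1.78 CPM at 4 h. The 15 min libraries lay just below PBS, the 30 min libraries overlapped it, and the 4 h libraries were far below. The log2 difference was -0.38 ± 0.13 at 15 min and -0.15 ± 0.13 at 30 min, neither past the test beyond 1.5-fold, and at 4 h the gene was 5.12-fold lower (-2.35 ± 0.17, edgeR adjusted p = 9.28e-10). The 4 h level rests on 20 to 26 fragments per library, against 228 to 251 in PBS. Because Ptgs2 rose while Hpgd fell, the ratio of Ptgs2 to Hpgd in TPM was 1.33 ± 0.17 without LPS, then 4.17 ± 0.080 (15 min), 39.5 ± 6.7 (30 min) and 1018 ± 82 (4 h), as mean ± SD with n = 3.

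Ptger4, the EP4 receptor that raises cyclic AMP when prostaglandin E2 binds, rose at 4 h from a low level. It measured 2.44, 2.90 and 2.52 CPM in PBS, 2.17, 2.80 and 2.98 CPM at 15 min, 4.03, 4.61 and 5.72 CPM at 30 min, and 8.33, 9.12 and 8.26 CPM at 4 h. The 15 min libraries overlapped PBS, and the later libraries lay above it. The log2 change of 0.87 ± 0.18 at 30 min did not pass the test beyond 1.5-fold (edgeR adjusted p = 0.287), and that of 1.71 ± 0.18 at 4 h did (edgeR adjusted p = 1.03e-06), or 3.26-fold. The gene had 64 to 137 fragments per library. It overlaps Ttc33 on the opposite strand, which had 168 to 645 fragments, and reads in the shared stretch cannot be told apart without strand.

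Steps between LPS times were tested in the same fit. From 15 to 30 min 3 members passed, Ptgs2, Ptges and Ptgds, all higher, beside 4.65% of all genes (2.69% higher). Tested for any change at all, 8 members were higher at 30 than at 15 min, beside 19.2% of all genes. Ptgs1 and Hpgd did not pass. Of all genes 37.4% differed in either direction. From 30 min to 4 h 8 members passed, 4 higher and 4 lower, beside 28.6% of all genes (16.9% higher and 11.8% lower). The higher were Pla2g4a, Ptgs2, Ptges and Ptges2, the lower Ptgs1, Ptgis, Ptgds and Hpgd. Ptges3 (log2 0.24 ± 0.032) and Ptger4 (0.84 ± 0.17, edgeR adjusted p = 0.0720) did not pass in this step.

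The rest of the eicosanoid pathway was described with lists of 63 genes, of which 49 had enough fragments to be tested. Against PBS 2 were higher and 2 lower at 15 min, 2 were lower at 30 min, and 7 were higher and 15 lower at 4 h. Of all tested genes 3.31% were higher and 0.872% lower at 15 min, 0.799% were lower at 30 min, and 19.0% were higher and 13.8% lower at 4 h. With no correction for composition the 4 h split was 4 higher and 28 lower, beside 9.96% and 44.7% of all genes. The median log2 change of the 49 genes was -0.20, -0.16 and -0.24 at the 3 times. The lists were chosen with earlier results of these data known.

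Among 21 tested genes for the release and re-esterification of arachidonic acid, 4 were higher and 5 lower at 4 h, beside 19.0% and 13.8% of all genes. With no correction for composition 3 were higher and 12 lower, beside 9.96% and 44.7%. Pla2g4c, the calcium-independent relative of Pla2g4a, rose from 0.573 to 0.844 CPM in the PBS libraries to 10.1 to 11.2 CPM (log2 3.92 ± 0.28, edgeR adjusted p = 8.43e-11). Pla2g16, another phospholipase, rose by 1.88 ± 0.052, and Anxa1, whose protein annexin A1 restrains phospholipase A2, by 1.69 ± 0.066. Acsl4, which activates arachidonic acid for re-esterification, rose by 0.93 ± 0.058, but did not pass with no correction for composition. Mgll, the monoacylglycerol lipase that supplies arachidonic acid in the brain, fell by 0.98 on the log2 scale, and Pla2g15, Pla2g2d, Daglb and Abhd12 fell too. Faah, which hydrolyses anandamide, was the sole gene of this list to pass at 15 min (log2 1.21 ± 0.062, edgeR adjusted p = 1.03e-08). It stood at 44.0 to 50.3 CPM then, above 19.2 to 20.8 CPM in PBS, and at 21.4 to 22.4 CPM at 4 h. Neuron markers were highest at the same time, with a summed level of 480 to 491 CPM for 5 markers at 15 min against 307 to 319 CPM in PBS. Of these, 2 passed as higher at 15 min, and the sum was 295 to 296 CPM at 30 min and 239 to 248 CPM at 4 h. Their part in the result was not tested.

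Of the 5 other synthases tested, 2 passed at 4 h, both lower, beside 13.8% of all genes. With no correction for composition all 5 passed as lower, beside 44.7%. Hpgds, the haematopoietic prostaglandin D synthase, fell by 1.44 on the log2 scale at 4 h (edgeR adjusted p = 0.000623), from 6.15 to 7.60 CPM to 1.31 to 3.80 CPM, and Cbr1, a carbonyl reductase that acts on prostaglandin E2, fell by 0.79. Tbxas1, the thromboxane synthase, differed from PBS by -0.28 ± 0.28 and did not pass with the correction.

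Of the 7 other prostanoid receptors tested, 1 was higher and 4 were lower at 4 h, beside 19.0% and 13.8% of all genes. Ptgir, the prostacyclin receptor, had been lower at 15 min (log2 -1.17 ± 0.17, edgeR adjusted p = 0.00678), at 1.19 to 1.66 CPM against 3.00 to 3.36 CPM in PBS. At 4 h it stood at 28.1 to 32.8 CPM, a log2 change of 3.26 ± 0.14 (edgeR adjusted p = 6.75e-15), while its ligand's synthase Ptgis was lower. Ptgfr, the receptor of prostaglandin F2 alpha, fell by 3.26 on the log2 scale, Ptgdr, the DP1 receptor of prostaglandin D2, by 2.22, Ptger1, the EP1 receptor, by 1.23, and Tbxa2r, the thromboxane receptor, by 1.02. Ptger2 and Ptger3 did not pass. Ptger2 was at 0.694 to 1.1987 CPM at 4 h, and its log2 change was 1.03 ± 0.48 (edgeR adjusted p = 0.204). Ptger4 was thus 1 of 2 receptors of the family that passed as higher at 4 h, beside Ptgir, and these 5 calls of the list were the same with no correction for composition.

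Of the 5 tested genes of transport and breakdown, 1 was higher and 1 lower at 4 h, beside 19.0% and 13.8% of all genes, and with no correction for composition Slco2a1 no longer passed and 3 were lower, among them Abcc4. Abcc4, a pump that exports prostaglandin E2, was abundant, at 249 to 257 CPM in PBS and 204 to 217 CPM at 4 h, and its log2 change of -0.26 ± 0.032 did not pass the test beyond 1.5-fold with the correction. Slco2a1, the prostaglandin transporter that takes prostaglandins up for breakdown, rose at 4 h from 11.9 to 13.9 CPM to 25.3 to 25.5 CPM (log2 0.94 ± 0.11, edgeR adjusted p = 0.00116). Zadh2, a prostaglandin reductase, fell by 0.79. In the lipoxygenase and leukotriene list of 11 tested genes, 1 was higher and 3 were lower at 4 h, beside 19.0% and 13.8% of all genes. With no correction for composition Alox12b, the higher gene, no longer passed and 4 were lower. Lta4h and Cysltr1 had log2 changes of -0.90 and -1.02 at 4 h. Cysltr2 passed as lower at 30 min (-0.87) but did not pass at 4 h (0.46). Alox12, the platelet-type 12-lipoxygenase, fell at each time, from 24.1 to 27.8 CPM in PBS to 13.6 to 14.04 CPM at 15 min (log2 -0.91 ± 0.090, edgeR adjusted p = 0.00485) and 5.26 to 6.26 CPM at 4 h (log2 -2.18 ± 0.11, edgeR adjusted p = 1.76e-12).

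**Figure D4:**
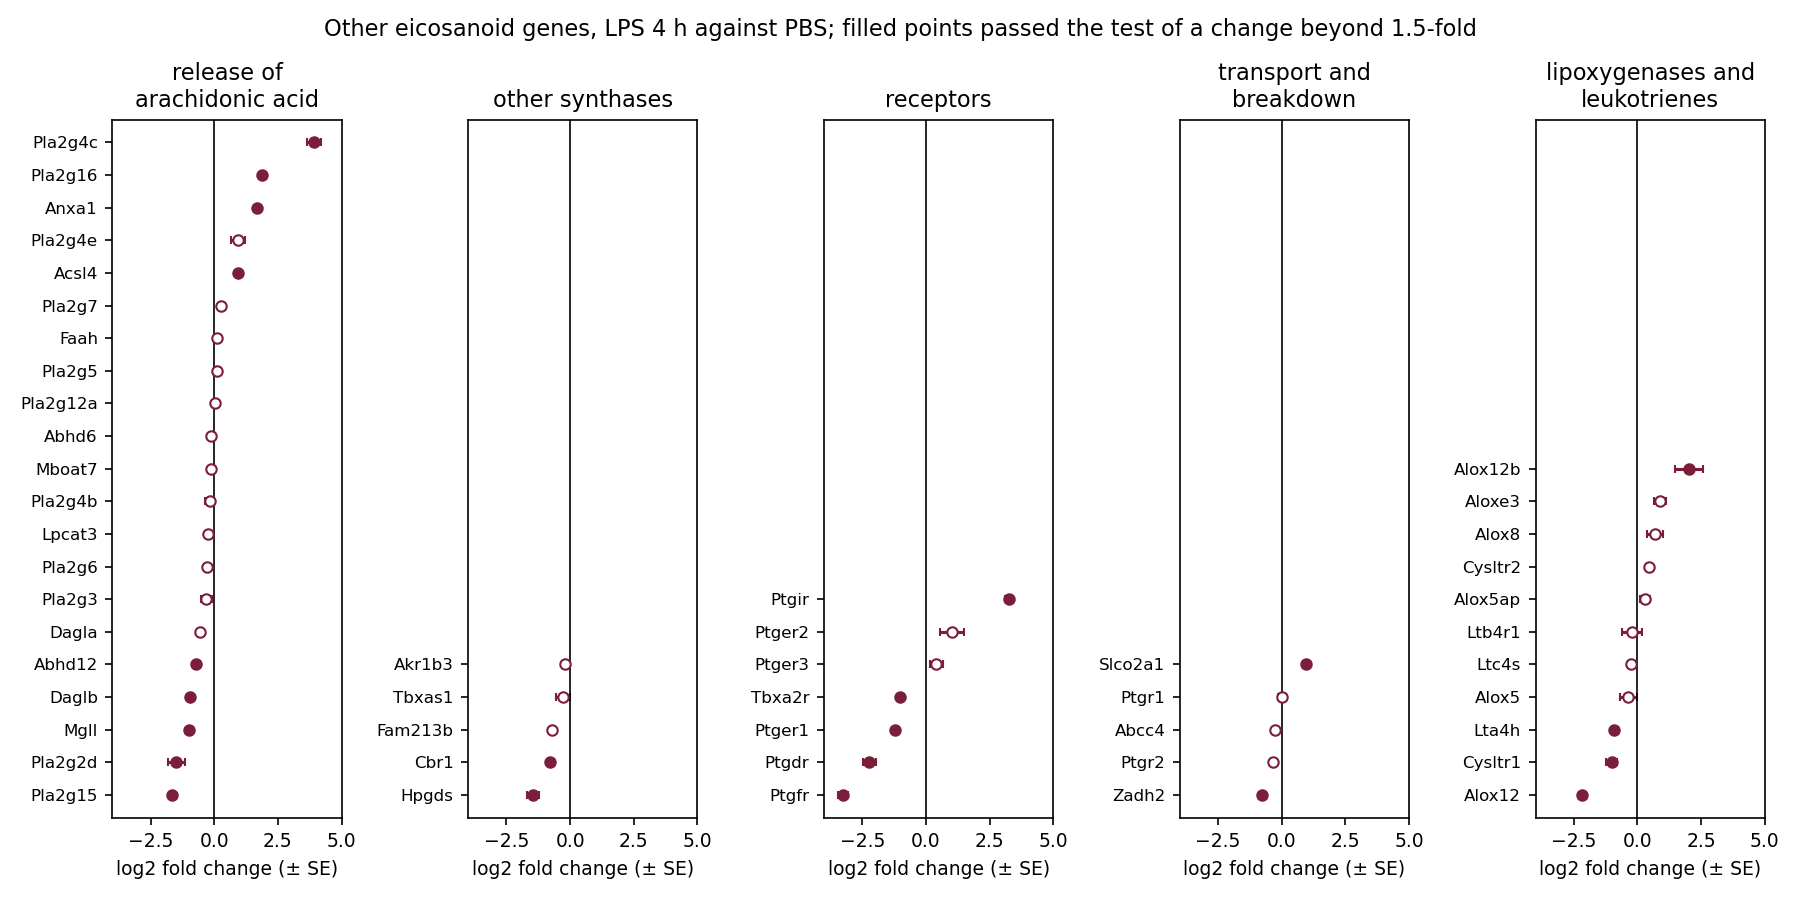
Log2 fold change at 4 h against PBS of the 49 tested eicosanoid genes that are not among the 10 members, by list, with bars of 1 SE (fit over all 12 libraries). Filled points passed the test of a change beyond 1.5-fold, 7 of them to the right of 0 and 15 to the left, with Pla2g4c and Ptgir farthest right and Ptgfr farthest left.

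Genes with the most similar course were found among 12262 other protein-coding genes with a mean of at least 5 CPM, as the smallest root mean square difference between centred log2(CPM + 1) group means over the 4 groups. For Ptgs2 the 3 closest included Ackr1 and Il1b, with differences of 0.36 and 0.37. Ackr1, the atypical chemokine receptor of venules, had log2 changes of 1.03, 3.95 and 7.34 at the 3 successive times. Il1b, at 0.47 CPM in PBS, had 2.46, 5.45 and 8.15, against 1.28, 4.74 and 7.25 for Ptgs2. It stayed among the 3 closest with 0.5 CPM added. The courses closest to Ptges were those of Marcksl1, Fosl1 and Bcl2a1b, and Marcksl1 had log2 changes of -0.20, 1.18 and 4.31. Fosl1, at 0.11 CPM in PBS, had 0.049, 3.97 and 7.65, against 1.203 and 4.26 for Ptges at the last 2 times, and it was not among the 3 closest with 0.5 CPM added. Those closest to Pla2g4a were Fyb, Gadd45a and Itgam, of which Fyb and Itgam are leukocyte genes. For Ptgds, Smoc1, Aebp1 and Gjb6 came closest, with the same low values at 15 min and 4 h, and Smoc1 had log2 changes of -0.79, 0.40 and -0.74. For Ptgis they were Hey2, Cldn11 and Smo, for Hpgd Glis2, Hscb and Golm1 (Hscb alone with 0.5 CPM added), and for Ptgs1 Nap1l3, Ech1 and Anapc11. Ptger4 was below the 5 CPM limit. The likeness is a description over 4 group means.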

How the data were processed

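RNA of cerebral vessels was sequenced in 12 libraries, made by the authors with a SMART-Seq v4 and Nextera XT protocol, without molecular identifiers or strand. Per the labels and the study's methods, the authors aligned reads to GRCm38.p6 with Salmon 1.2.1. The deposited Salmon files give estimated counts and TPM per transcript, and the authors' gene table gives counts as a normalized signal after DESeq2 scaling. Estimated counts were summed to 54119 genes of GENCODE M21 and rounded. Of 140948 transcripts, 1096 were not joined to a gene and held 0.482% to 0.850% of fragments.

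The 19150 genes passing filterByExpr (minimum count 10, total 15, share 0.7) were fitted over all 12 libraries with edgeR 4.0.16 under R 4.3.3, using TMM factors (group means 1.17, 1.15, 1.04 and 0.717) and a quasi-likelihood test of a change beyond 1.5-fold, with Benjamini-Hochberg adjusted p over all genes and a limit of 0.05. SE is the log2 change divided by the root of the F statistic. CPM are TMM-scaled. Tables and figures were made with Python 3.11.15. The test was tested on simulated data of 19150 genes. A depth of 18.3 M to 25.9 M fragments limits precision for low genes, and fragments without identifiers are not independent molecules.

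All members were reported. Other genes were named where they passed in a pathway list or marked a cell type that moved with a member, or had one of the 3 most similar courses, of which 1 gene is not reported here. The members and lists were chosen with earlier results of these data known. The ATTTA count, the ratios from protein-coding transcripts and the description of Ptgs2os were added after values had been seen. Alternatives tried were DESeq2 1.42.0, limma 3.58.1 on the authors' table with 1 or 10 added, other scaling, filter, length and fold settings, a replicate block and leaving out each library. Promoter sequences came from RefSeq (GRCm38.p6).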

Additional observations from a re-analysis of the deposited data

Results flagged for a closer look

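Differences between LPS times of the same contrast with PBS were tested directly by edgeR, as the change from 1 time to the next, and 11 such differences in 8 members passed. Of all tested genes 4.65% passed from 15 to 30 min and 28.6% from 30 min to 4 h. Between 15 and 30 min the log2 change against PBS grew by 3.46 for Ptgs2, by 1.52 for Ptges and by 1.14 for Ptgds. Between 30 min and 4 h it grew by 2.51 for Ptgs2, 3.06 for Ptges, 2.61 for Pla2g4a and 0.92 for Ptges2. Over the same step it moved by -1.01 for Ptgs1, -1.09 for Ptgis, -1.20 for Ptgds and -2.20 for Hpgd. Ptgds was the member that passed with opposite signs in the 2 steps. The part of tissue makeup in these differences was not tested.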

How the results depend on the processing

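Over 850 recomputed differences of the members, 805 kept their direction and side of the threshold, 22 passed only under the alternative, 4 no longer passed and 19 changed sign, all of these uncalled. Without the fold limit, 7 members passed at 15 min, 8 at 30 min and 8 from 15 to 30 min, in place of 2, 3 and 3. Of all tested genes 38.6%, 36.9% and 37.4% then passed, in place of 4.18%, 4.58% and 4.65%. With library size as the only scaling, Ptges2 at 4 h (0.59), Ptges3 at 4 h (0.40) and Ptges2 from 30 min to 4 h (0.38) lost their calls. Ptgs1 from 30 min to 4 h (-0.97) lost its call under limma with 10 added. Over the 11 alternative settings the 4 h log2 change was 6.54 to 7.25 for Ptgs2 and 3.56 to 4.27 for Ptges. It was 1.61 to 2.32 for Pla2g4a and 1.00 to 1.71 for Ptger4. For members that fell it was -1.79 to -1.09 for Ptgs1 and -1.94 to -1.23 for Ptgis. Ptgds ranged from -1.65 to -0.92 and Hpgd from -3.06 to -2.10, and all of these calls held. Signs changed for Ptges3 from 30 min to 4 h (-0.30, library size only), for Ptges2 at 15 min (-0.25 with a length offset, -0.28 and -0.27 with limma), for Ptgs1 from 15 to 30 min (-0.00374 with library size only, -0.12 with a length offset, -0.10 with both limma fits) and for Ptger4 at 15 min (-0.00855 with RLE factors, -0.00853 with DESeq2, -0.013 with library size only, -0.00306 with a length offset, -0.026 and -0.022 with limma). Leaving out 1 library gave Ptgs1 at 30 min values from -0.16 to 0.022 (without PBS replicate 2) and Ptger4 at 15 min values from -0.084 to 0.14. The cause was not tested. Leaving out LPS 30 min replicate 3 brought Ptger4 from 30 min to 4 h past the threshold, at 0.99. From protein-coding transcripts alone, an alternative added after the data had been seen, the TPM ratio was 1.68, 4.80, 46.7 and 537 for Ptgs2 over Ptgs1 and 2.24, 1.64, 3.79 and 17.3 for Ptges over Ptges2 in the 4 groups, and 1.03 for Ptges3 over Ptges at 4 h. With 0.5 CPM added, 1 of the 3 genes most similar to Hpgd was shared. Replicate numbers did not pair the samples (18 correlations of deviations, -0.30 to 0.27, with 6 of 12 libraries closest to their own number), and a fit with the replicate number as a block left the counts of members that passed at 2, 3, 10, 3 and 8. Depth limits Hpgd at 4 h and Ptger4 most.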

Other observations

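Ptgs2os, a noncoding gene on the opposite strand of chromosome 1, starts at position 150099963 (GRCm38). Between it and the first base of Ptgs2 lie 67 bases, so that the pair is transcribed away from a shared stretch. The level of Ptgs2os was 0.787, 0.911 and 0.954 CPM in PBS, 0.237, 0.425 and 0.491 CPM at 15 min, 0.520, 0.646 and 0.715 CPM at 30 min, and 11.8, 10.6 and 11.4 CPM at 4 h. The 15 min and 30 min libraries all lay below the PBS libraries, at the times when Ptgs2 was already above them, by log2 differences of -1.21 ± 0.30 (edgeR adjusted p = 0.127) and -0.49 ± 0.28 that did not pass. At 4 h Ptgs2os was higher than PBS by 3.66 ± 0.23 (edgeR adjusted p = 1.14e-11). The early levels rest on 7 to 27 fragments per library, and the kit keeps no strand. Ptgs2os was chosen after its values were seen.

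Pla2g4a, Ptges, Ptgis and Hpgd shared a small difference at 15 min. Their 15 min libraries all lay below PBS and differed from it when tested for any change (edgeR adjusted p = 1.59e-09, 0.000165, 5.52e-10 and 0.0248), whereas in the test beyond 1.5-fold they did not pass. Among all tested genes 49.3% had 15 min libraries without overlap with PBS, in either direction. With Ptgds, which passed both tests, 5 of the 10 members were lower at 15 min when tested for any change, beside 18.2% of all genes. At 30 min Pla2g4a and Ptgis stood between their 15 min and PBS levels.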
